A study of Mus musculus with 7 samples.

Results

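The histone deacetylases are the enzymes that remove acetyl groups from histones and other proteins, and the question put to the data was where HDAC1, itself one of them, bound at the genes of this family. The genes examined were Hdac1, Hdac2 and Hdac3 of class I, Hdac4, Hdac5, Hdac7 and Hdac9 of class IIa, Hdac10 of class IIb and Hdac11 of class IV. An HDAC1 peak was assigned to a gene when it covered at least 1 bp of the gene span or of the 5 kb on either side of it. By this rule 17 of the 15347 HDAC1 peaks lay at 8 of the 9 genes, where 50.5% of all 21938 protein-coding genes had a peak. At 6 of the 9 genes a peak lay at a promoter of the gene itself, beside 43.9% of coding genes, the promoter being the stretch from 2 kb before to 1 kb after the start of any of its coding transcripts. Peaks at 1 gene share that gene and its chromatin and are not replicates.

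HDAC1 ChIP-seq, which sequences DNA brought down with an antibody from crosslinked chromatin, was performed on wildtype Swiss Webster mouse embryos at E11.5, staged at 40 to 44 somites. There were 4 samples precipitated with an HDAC1 antibody (Abcam ab7028) and 3 input samples, which are chromatin without antibody, and each is labelled as fore- and hindlimb buds of 3 litters. The peaks were called over these samples as a single list of chromosome, start and end on the mm10 assembly, in the authors' rank order, where rank 1 comes first. The list holds no read count, height or value for a sample, so that the reads behind a peak cannot be given, nor an error between samples, and no test was made. Limb buds hold several cell types, and the list does not tell in which of them a site was bound.

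The class I deacetylases HDAC1, HDAC2 and HDAC3 are nuclear enzymes that act as the catalytic subunits of corepressor complexes. HDAC1 and HDAC2 work in the SIN3, NuRD and CoREST complexes and HDAC3 in the NCoR/SMRT complex, and they reach chromatin through their partners because they have no DNA-binding domain of their own. Class IIa enzymes shuttle between the nucleus and the cytoplasm and restrain MEF2 factors, including during the growth of cartilage and muscle, whereas HDAC10 and HDAC11 mainly act on substrates other than histones.

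Sequences are given for sites that differed in their peaks. Promoters of 300 bases, from 250 bases before to 50 bases after a transcript start, were taken from RefSeq (GRCm38.p6, the mm10 assembly) for the 6 genes whose symbols matched, and are written 5′ to 3′ on the strand of the gene. Capitals mark a GC box (GGGCGG or its reverse complement), the binding sequence of SP and KLF factors, and the CCAAT box (CCAAT or its reverse complement). The first promoter lay whole within a peak, the promoter of Hdac4 lay just upstream of one, that of Hdac5 was covered in part, and that of Hdac11 had no peak.
Hdac2 promoter, chr10:36974294-36974593, plus strand: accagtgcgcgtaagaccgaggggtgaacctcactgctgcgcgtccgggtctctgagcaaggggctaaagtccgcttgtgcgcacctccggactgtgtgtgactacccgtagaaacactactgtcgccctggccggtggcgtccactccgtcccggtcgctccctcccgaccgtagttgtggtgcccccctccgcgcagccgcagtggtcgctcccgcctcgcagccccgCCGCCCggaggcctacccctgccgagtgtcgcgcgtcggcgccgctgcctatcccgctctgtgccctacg
Hdac4 promoter, chr1:92180292-92180591, minus strand: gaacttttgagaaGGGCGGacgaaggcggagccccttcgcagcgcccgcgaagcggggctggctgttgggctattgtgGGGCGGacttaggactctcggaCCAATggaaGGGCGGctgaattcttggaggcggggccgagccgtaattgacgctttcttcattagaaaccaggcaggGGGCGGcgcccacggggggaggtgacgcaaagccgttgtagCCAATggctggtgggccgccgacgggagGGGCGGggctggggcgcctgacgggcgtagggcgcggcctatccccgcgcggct
Hdac5 promoter, chr11:102230123-102230422, minus strand: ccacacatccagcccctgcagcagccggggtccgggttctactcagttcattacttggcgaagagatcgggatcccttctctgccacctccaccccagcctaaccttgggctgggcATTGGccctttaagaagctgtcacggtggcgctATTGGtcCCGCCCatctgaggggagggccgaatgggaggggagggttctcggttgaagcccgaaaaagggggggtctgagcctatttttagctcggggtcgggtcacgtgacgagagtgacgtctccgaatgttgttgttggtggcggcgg
Hdac11 promoter, chr6:91156565-91156864, plus strand: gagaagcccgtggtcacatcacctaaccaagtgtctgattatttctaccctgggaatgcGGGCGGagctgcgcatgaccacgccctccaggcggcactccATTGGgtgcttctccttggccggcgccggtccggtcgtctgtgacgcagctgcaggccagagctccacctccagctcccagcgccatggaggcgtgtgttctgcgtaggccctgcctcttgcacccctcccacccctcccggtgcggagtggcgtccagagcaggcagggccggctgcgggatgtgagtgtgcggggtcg

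Hdac7 and Hdac9 each have several promoters, which differed in their peaks. The first Hdac7 sequence, from the internal promoter, lay whole within a peak, and the second, from the upstream promoter, had none. The third is the central part of the long peak at the 5′ end of Hdac9, the fourth is the RefSeq promoter of the shorter Hdac9 transcripts, which had no peak, and the fifth is a whole short peak in the Hdac9 gene. The peak sequences are given on the minus strand, which is the strand of Hdac9, and capitals also mark an AP-1 sequence (TGANTCA) and a homeodomain core (TAATTA).
Hdac7 internal promoter, chr15:97831446-97831745, minus strand: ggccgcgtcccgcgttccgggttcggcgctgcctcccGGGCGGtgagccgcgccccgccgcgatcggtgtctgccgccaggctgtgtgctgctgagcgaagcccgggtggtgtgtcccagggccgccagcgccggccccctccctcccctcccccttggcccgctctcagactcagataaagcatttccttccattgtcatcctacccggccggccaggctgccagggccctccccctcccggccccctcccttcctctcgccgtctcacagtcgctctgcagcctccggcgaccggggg
Hdac7 upstream promoter, chr15:97844453-97844752, minus strand: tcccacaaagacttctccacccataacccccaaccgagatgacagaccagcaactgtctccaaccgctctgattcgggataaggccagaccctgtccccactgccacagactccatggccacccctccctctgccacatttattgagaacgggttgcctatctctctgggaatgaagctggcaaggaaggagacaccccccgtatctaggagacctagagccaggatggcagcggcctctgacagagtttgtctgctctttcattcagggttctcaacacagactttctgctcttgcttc
Hdac9 5′ peak, chr12:34906550-34906849, minus strand: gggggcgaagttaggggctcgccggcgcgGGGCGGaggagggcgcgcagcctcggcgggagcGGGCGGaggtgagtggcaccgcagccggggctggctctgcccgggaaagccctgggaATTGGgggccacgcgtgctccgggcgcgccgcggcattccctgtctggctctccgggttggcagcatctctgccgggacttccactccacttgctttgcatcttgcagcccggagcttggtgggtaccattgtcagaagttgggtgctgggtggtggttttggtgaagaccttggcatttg
Hdac9 promoter, chr12:34528840-34529139, minus strand: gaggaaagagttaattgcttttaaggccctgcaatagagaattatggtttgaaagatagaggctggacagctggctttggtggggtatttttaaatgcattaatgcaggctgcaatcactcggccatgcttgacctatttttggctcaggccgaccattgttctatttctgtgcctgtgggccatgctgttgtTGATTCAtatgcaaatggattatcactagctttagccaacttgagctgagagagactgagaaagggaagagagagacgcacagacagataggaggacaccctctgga
Hdac9 short peak, chr12:34865350-34865599, minus strand: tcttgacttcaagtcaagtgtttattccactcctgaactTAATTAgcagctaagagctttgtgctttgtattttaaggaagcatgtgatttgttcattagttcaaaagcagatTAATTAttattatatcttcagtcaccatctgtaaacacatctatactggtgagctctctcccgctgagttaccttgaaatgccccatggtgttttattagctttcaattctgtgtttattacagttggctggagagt

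HDAC1 was found at its own gene. A peak of 750 bp, rank 5702, covered the start of the Hdac1 coding transcripts at chr4:129542713, with 286 bp outside the gene, 84 bp in untranslated exon, 49 bp in coding sequence and 331 bp in the intron. The gene span of Hdac1 covers chr4:129516104-129542713 on the minus strand (26.6 kb), and no other peak fell inside it. Both other peaks of its window lay beyond the 3′ end and at the neighbouring gene Marcksl1, which encodes a MARCKS-like actin-binding protein. The first of them, 1300 bp long with rank 1315, covered the Marcksl1 start, and the second, 200 bp long with rank 12111, lay 150 bp away in Marcksl1 coding sequence. The highest-ranked peak assigned to Hdac1 was therefore at the promoter of the neighbour and not at that of Hdac1.

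Hdac2, whose product is the close relative and usual partner of HDAC1, had a single peak. This peak (chr10:36974200-36974999, 800 bp, rank 4183) covered both coding starts, at 36974544 and 36974570. It was isolated, with the next HDAC1 peak 160600 bp away.

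Hdac3 had 3 peaks, and none of them covered its own start. Peaks of 650 bp (rank 9176) and 250 bp (rank 13650) lay 234 bp and 1084 bp upstream of the Hdac3 start, 200 bp from each other. Hdac3 shares this promoter region with the divergent gene Rell2, a relative of the RELT receptor, and the longer peak covered 4 Rell2 starts. The third peak, 950 bp long with rank 4332, lay beyond the 3′ end of Hdac3 at the promoter of Diaph1, which encodes a formin that builds actin filaments. As at Hdac1, the peak of the highest rank in the window was that of the neighbour.

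The class IIa genes Hdac4, Hdac5 and Hdac7 each had 1 peak at a promoter of their own. At Hdac4, a regulator of chondrocyte hypertrophy, the 650-bp peak (chr1:92179500-92180149, rank 3410) lay wholly in an intron, 192 bp downstream of the coding start at 92180341. It had the highest rank of the 7 own-promoter peaks, no other peak was found in the 266.9 kb of the gene, and the next peak was 199250 bp away. The other coding start of Hdac4, at 92148393, was 31107 bp from the peak.

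At Hdac5, which like HDAC4 restrains MEF2 in muscle, a 600-bp peak (chr11:102229700-102230299, rank 4423) covered all 3 coding starts. A second peak in its window, 200 bp long with rank 13699, lay past the 3′ end at the promoter of G6pc3, a glucose-6-phosphatase subunit.

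At Hdac7, known for its role in endothelial cells and thymocytes, a 1050-bp peak (chr15:97830850-97831899, rank 4364) covered the internal starts at 97831494 and 97831767. These were 2 of 7 coding starts. The 4 upstream starts lay 12265 to 12603 bp from the peak and the downstream start 15987 bp from it, and no peak was found at any of these. Of the Hdac7 promoters shown above, the internal one thus lay in a peak and the upstream one did not.

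Hdac9, a class IIa gene with roles in muscle and in regulatory T cells, carried 5 peaks, more than any other of the genes, along a span of 869.5 kb (chr12:34047580-34917095). None lay at a GENCODE coding start, and these starts were 65826 to 157393 bp from the nearest peak. The longest of all 17 peaks, 1500 bp with rank 4696, lay near the 5′ end of the gene (chr12:34905950-34907449). It covered no start of the GENCODE coding transcripts used here. It did cover 4 starts of RefSeq mRNAs, at 34906978 to 34907015, and a start of a GENCODE transcript outside that set. Whether Hdac9 counts as a gene with a promoter peak thus depends on the annotation. The RefSeq start at the 5′ end of the gene, at 34917095, was 9646 bp from this peak.

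The 4 remaining Hdac9 peaks were short and low in rank, outside the exons of GENCODE coding transcripts. They measured 250 bp (34865350-34865599, rank 14493), 200 bp (34604550-34604749, rank 11596), 250 bp (34594700-34594949, rank 12709) and 200 bp (34221000-34221199, rank 12772). The middle pair of these were 9600 bp apart, and the last was 252650 bp or more from any other peak. Introns of Hdac9 are known to hold enhancers of the adjacent gene Twist1, a basic helix-loop-helix factor of limb mesenchyme, which lies 87750 bp beyond the 3′ end of Hdac9. Twist1 itself had 6 peaks in the corresponding window, the best at rank 454 and the longest 3800 bp. The Hdac9 peak closest to Twist1 was 263329 bp from its start, and the list does not link a peak to the gene on which it acts.

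Hdac10 and Hdac11 had no peak at a promoter of their own. Hdac10, a polyamine deacetylase encoded in only 5.39 kb, had a 550-bp peak (chr15:89122850-89123399, rank 4764) at its 3′ end. This peak covered 93 bp of Hdac10 untranslated sequence but lay at the promoter of Tubgcp6, a component of the gamma-tubulin ring complex, and was 5049 and 5301 bp from the coding starts of Hdac10. Hdac11, a deacylase of fatty-acid groups, had no peak in its window, and the nearest one was 39616 bp from its start. The remaining members of these classes, Hdac8 (class I) and Hdac6 (class IIb), are X-linked, were not among the 9 genes, and had no peak in their windows.

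**Figure D1:**
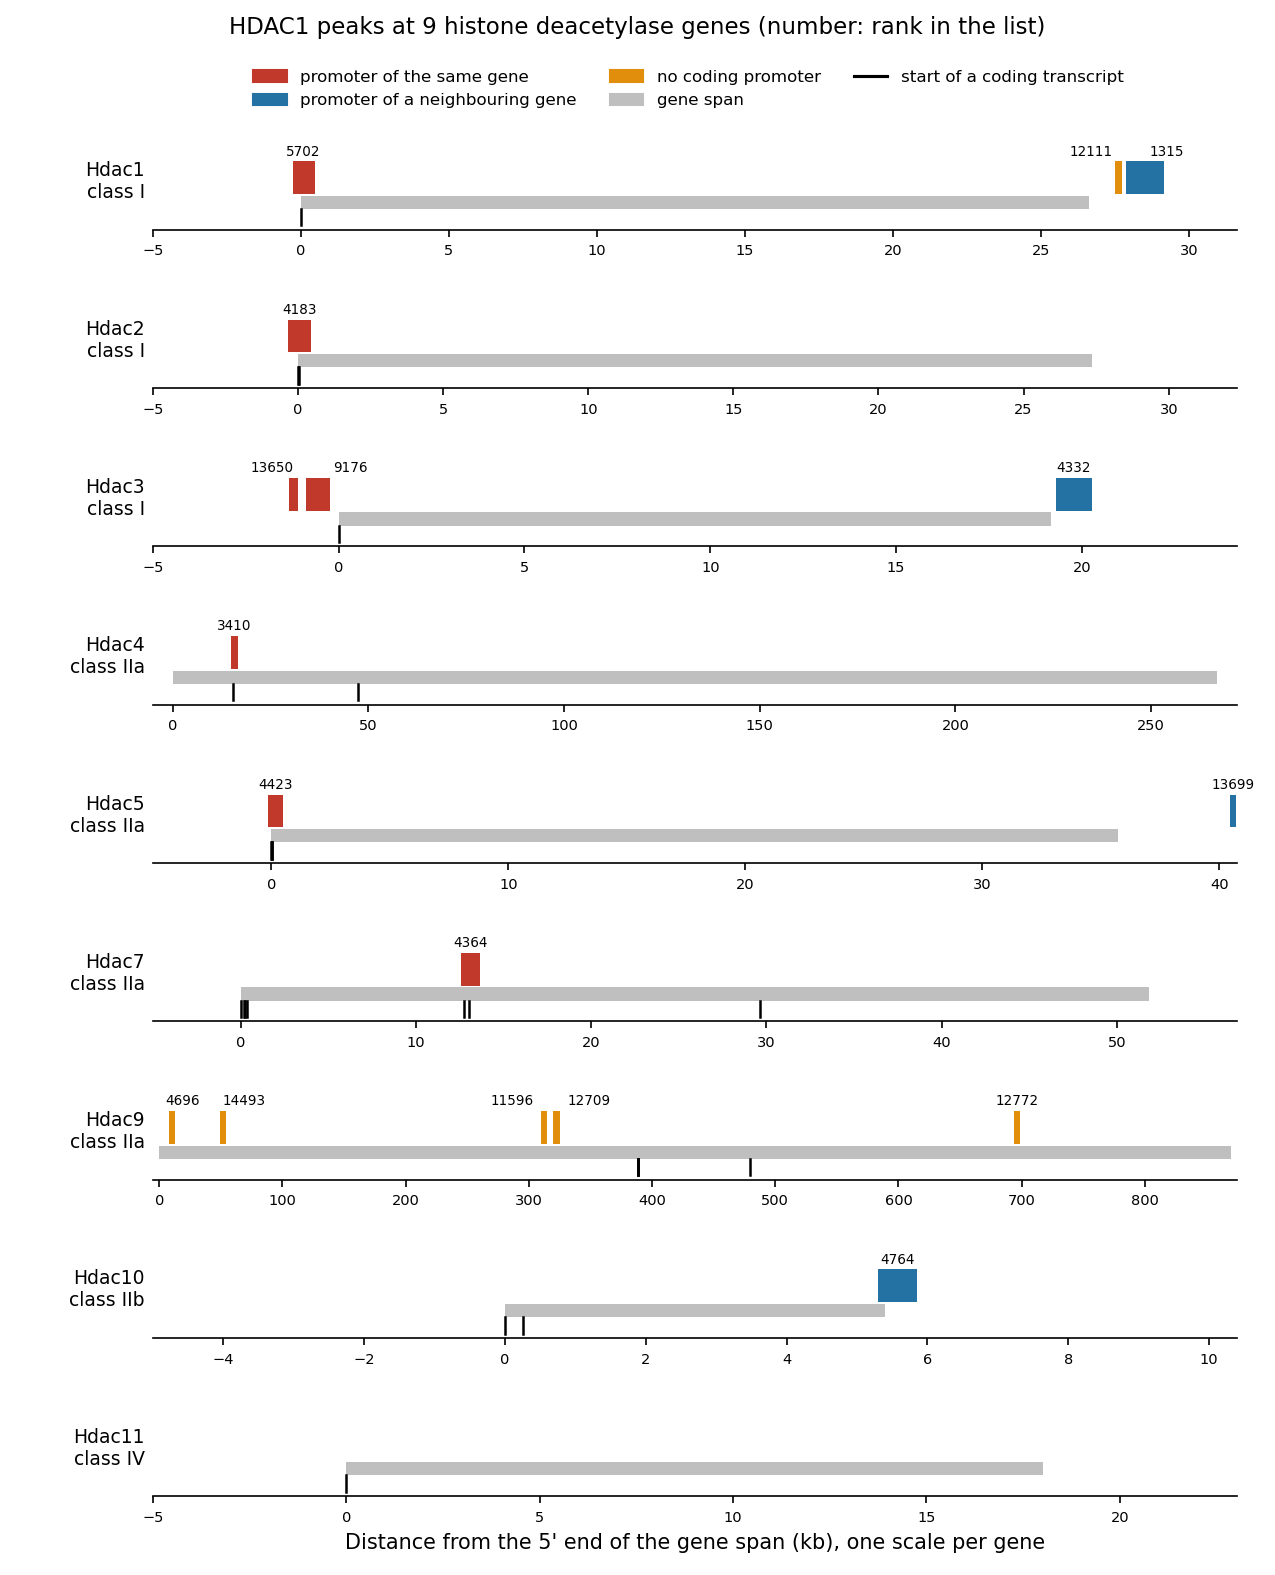
HDAC1 peaks at the 9 genes. Each panel shows a gene span in grey against the distance from its 5′ end in kb, with its own scale, black ticks for starts of GENCODE coding transcripts, and boxes for peaks with their rank above (short peaks are widened to be visible). Peaks at a promoter of the same gene are red, those at a promoter of a neighbouring gene blue, and those at no coding promoter orange. The 5 peaks of Hdac9 are away from its ticks, and Hdac11 has no peak.

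With 9 genes, the counts of 8 with any peak and 6 with an own-promoter peak were not tested against those of other genes. Of the 17 peaks, 7 lay at a promoter of the same gene (41.2%), 4 at the promoter of a neighbour alone and 6 at no coding promoter. No interval is given for such shares, because peaks at 1 gene are not independent. Hdac9 held 5 of the 17, and Hdac1 and Hdac3 held 3 each. Neighbour-only peaks lay in the windows of Hdac1, Hdac3, Hdac5 and Hdac10, and 9.76% of all coding genes had such a peak. Peaks at no coding promoter lay at Hdac1 and Hdac9, beside 9.31% of all coding genes. Altogether 11 of the 17 peaks were at some coding promoter (64.7%), and 70.1% of all 15347 peaks were.

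The classes differed in where their peaks lay by GENCODE coding starts. All 3 class I genes examined had an own-promoter peak, and 3 of the 6 genes of classes II and IV did. These counts depend on the annotation. Both peaks counted for Hdac3 lay outside its span, in the divergent gene Rell2. By RefSeq starts Hdac9 also had an own-promoter peak. This is its long peak, counted below among the 5 of classes II and IV at neither. Hdac8, a class I gene of 220.7 kb outside the 9, had no peak in its window, nor did Hdac6 of class IIb. Each of the 4 coding starts of the 3 class I genes had a peak in its promoter window, compared with 6 of the 19 coding starts of classes II and IV. These starts are not separate promoters, since those of Hdac2 and of Hdac5 shared a peak, and Hdac7 and Hdac9 held 7 and 4 of the 19. The counts thus depend on how many starts are annotated, and the share over all coding starts was not computed. Class I genes had 7 peaks (4 at an own promoter, 2 at a neighbour, 1 at neither) and classes II and IV had 10 (3, 2 and 5), all but 1 of which were in class IIa. Of these, 2 peaks in class I and 9 in classes II and IV touched the gene span itself, and the other 5 class I peaks lay in the flanks. The class IIa genes (35.7 to 869.5 kb) were longer than the 3 class I genes (19.2 to 27.3 kb). Hdac8 is also long, and its window of 230721 bp without a peak is not in the class I values. The windows of the 3 class I genes covered 103 kb with 6.79 peaks per 100 kb. Those of the 6 genes of classes II and IV covered 1307 kb with 0.765 peaks per 100 kb. The window of Hdac9 alone made up 879516 bp of this. Such densities depend on gene length, and none is given for all coding genes. Peaks occupied 4.75% and 0.417% of these windows. These differences between classes rest on 3 and 6 genes, without Hdac8 and Hdac6, and were not tested.

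Hdac4 and Hdac9 are the longest of the 9 genes. Among the 998 coding genes of at least 200 kb, 62.1% had an own-promoter peak and 37.0% a peak at no coding promoter. By GENCODE coding starts Hdac4 had the first and Hdac9 the second, and neither had both. By RefSeq starts Hdac9 had both. At least 5 peaks were found at 1.39% of all coding genes and at 7.41% of these long genes, whose median was 1 peak.

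**Figure D2:**
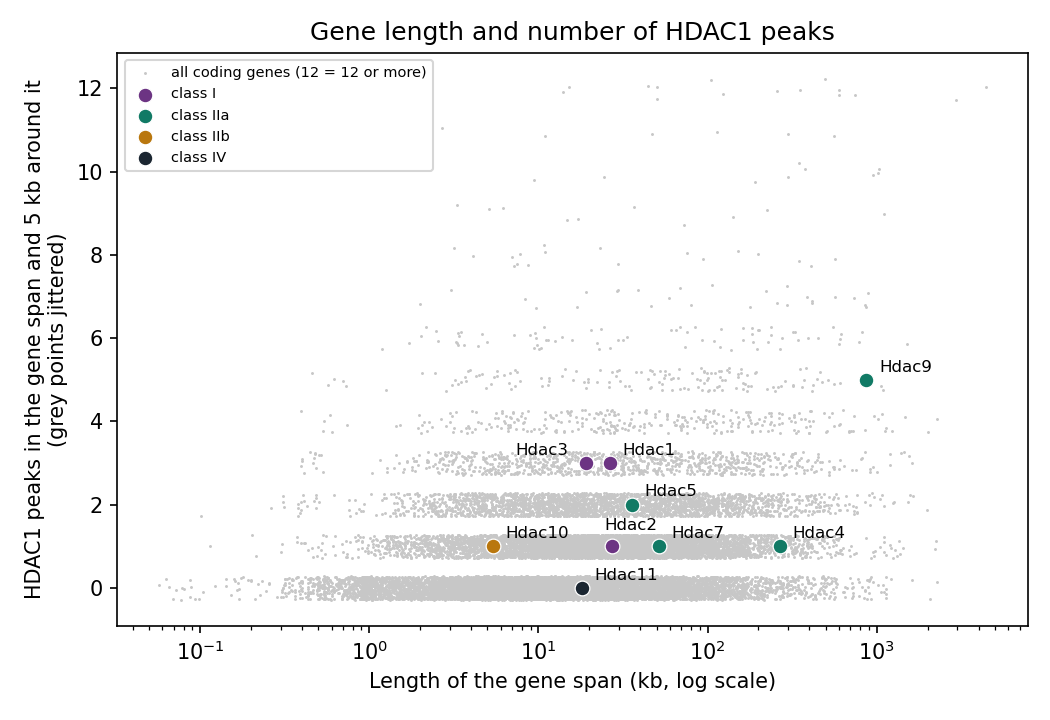
Number of HDAC1 peaks against gene length. Each grey point is a coding gene, with the length of its span in kb (log scale) on the horizontal axis and the number of peaks in the span and the 5 kb around it on the vertical axis (jittered, with the highest counts drawn at the top). Coloured points are the 9 deacetylase genes by class. Hdac9 has 5 peaks in 869.5 kb, whereas Hdac4 has 1 in 266.9 kb and the shorter Hdac1 and Hdac3 have 3.

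In rank, the own-promoter peaks of Hdac4, Hdac2, Hdac7 and Hdac5 lay close together, at 3410, 4183, 4364 and 4423, followed by Hdac1 at 5702 and Hdac3 at 9176. Of the 9630 coding genes with an own-promoter peak, 34.4% had a better best rank than Hdac4, 41.7% than Hdac2, 43.4% than Hdac7, 43.8% than Hdac5, 54.4% than Hdac1 and 76.6% than Hdac3. The best own-promoter peaks of 5 of these 6 genes thus lay before rank 7674, the midpoint of the list, and that of Hdac3 after it. The class II own-promoter peaks had ranks of 3410 to 4423 and a median length of 650 bp (600 to 1050), and the class I ones ranks of 4183 to 13650 and a median of 700 bp (250 to 800). These ranges overlapped.

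Over all 17 peaks, position went with length and rank. The 7 own-promoter peaks had a median length of 650 bp and a median rank of 4423. The 6 peaks at no coding promoter had medians of 225 bp and 12410. Of these 6, 5 were at Hdac9. The long Hdac9 peak stood apart from the others of the 6, which measured 200 or 250 bp. The 4 peaks at the promoter of a neighbour alone had medians of 750 bp and 4548. In the first 7674 peaks of the list, the order of length was reversed. Own-promoter peaks had a median of 750 bp there and the other peaks at these genes 1125 bp. Over the whole list the medians were 550 bp and 6369 for peaks at coding promoters and 300 bp and 10286 for the rest, so the difference seen at the deacetylase genes had the direction of that in the list. Peaks of up to 250 bp made up 7 of the 17, beside 24.0% of all peaks, and 8 of the 17 lay beyond rank 7674.

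**Figure D3:**
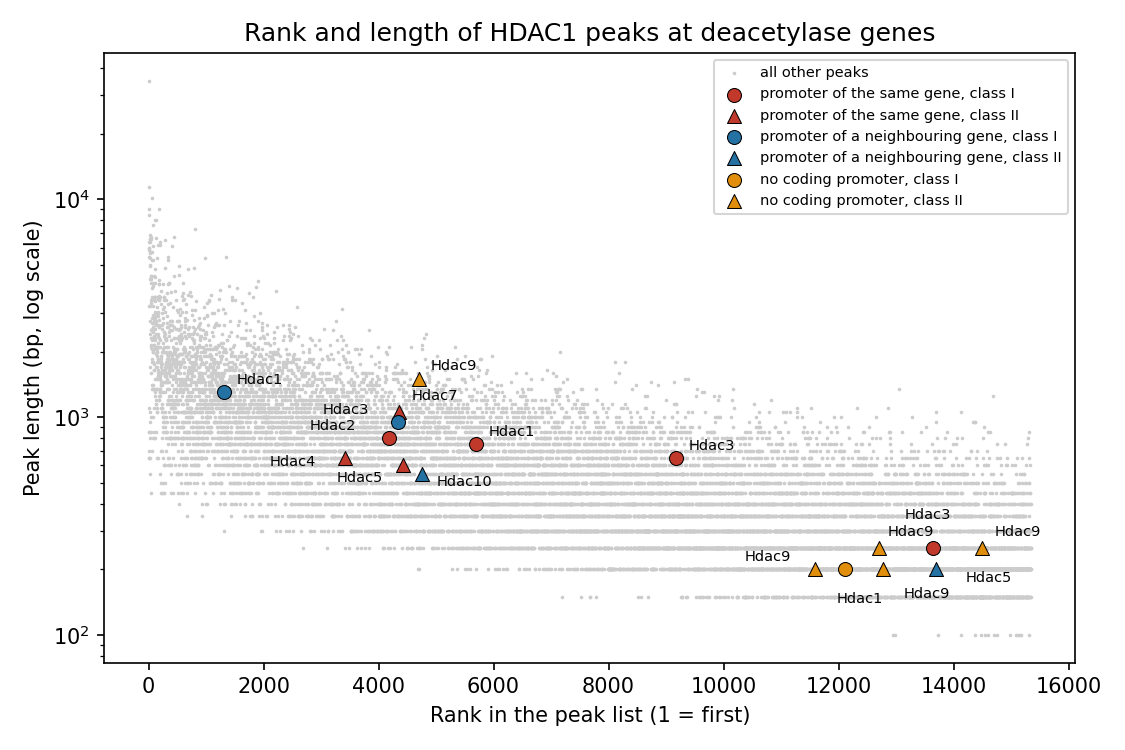
Rank and length of HDAC1 peaks. The horizontal axis is the rank in the list (1 is first) and the vertical axis the length in bp (log scale). Grey points are all peaks, circles are peaks at class I genes and triangles peaks at class II genes, coloured by position as red for a promoter of the same gene, blue for a promoter of a neighbour and orange for no coding promoter. Most red points lie between rank 3410 and 5702, and all 7 coloured points of 250 bp or less lie at rank 11596 or later.

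The peaks also differed in base composition, measured over 300 bp around the centre of each. For the 7 peaks of 200 or 250 bp, this window takes in bases just outside the peak. The GC content of own-promoter peaks had a median of 78.0% and ranged from 64.0% in the shorter Hdac3 peak to 81.7% at Hdac7. Their CpG ratio, the number of CpG dinucleotides over that expected from the base content, had a median of 0.922, which is typical of CpG islands. All peaks at coding promoters had medians of 67.7% and 0.842. Over whole peaks in place of their centres, the median GC content of the own-promoter peaks was 71.4% and that of all peaks at coding promoters 65.4%. The GC content of own-promoter peaks exceeded that of the other 10 by 17.2 percentage points between medians at the centre, and by 10.3 over whole peaks. The 4 short Hdac9 peaks had a GC content of 35.0 to 47.7% and CpG ratios of 0.109 to 0.412, and the median of all peaks away from coding promoters was 52.3% and 0.373. The long Hdac9 peak had 68.3% and 0.747, near the promoter peaks and unlike the other Hdac9 peaks. The 200-bp peak beside Hdac1 combined a GC content of 65.3% with a CpG ratio of 0.256.

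**Figure D4:**
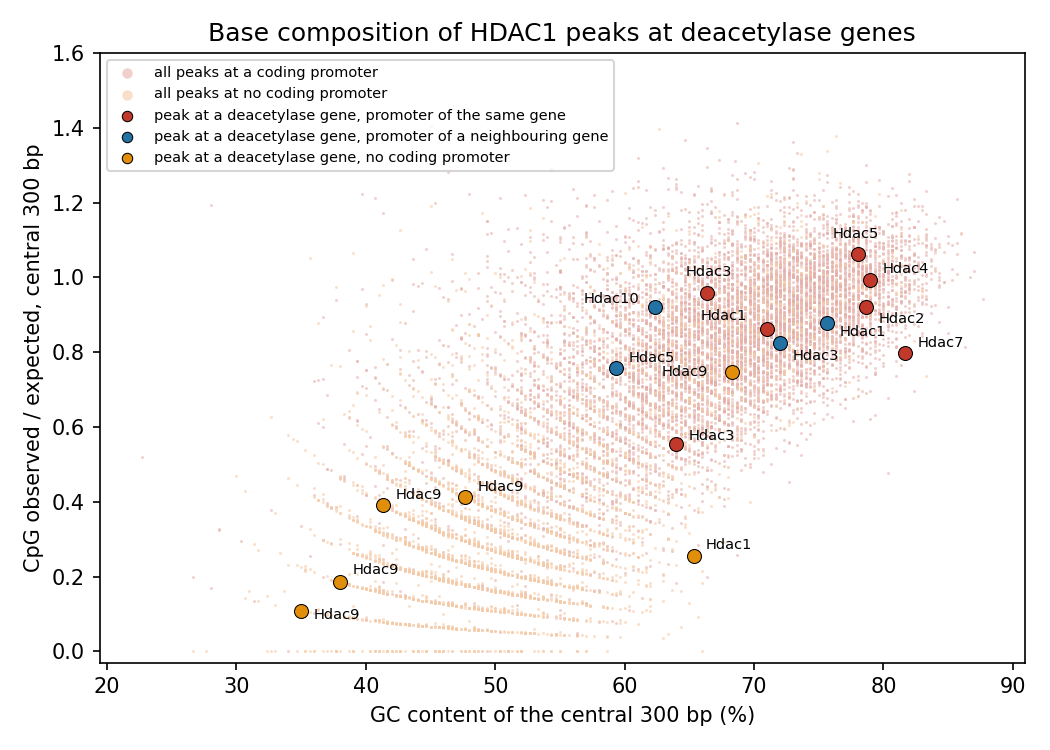
Base composition of HDAC1 peaks. The horizontal axis is the GC content in percent and the vertical axis the CpG observed over expected ratio, both over 300 bp around the centre of a peak. Small points are all peaks, at a coding promoter or not, and large points are the 17 peaks at deacetylase genes, coloured by position as in the legend. The 4 short Hdac9 peaks lie at the lower left, with GC contents of 35.0 to 47.7%, and most own-promoter peaks at the upper right. The shorter Hdac3 own-promoter peak lies lower, at 64.0% and a ratio of 0.555.

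RefSeq promoters with and without a peak were compared in the same way. Those covered by a peak in whole or in part in the promoter table, of Hdac2, Hdac5 and Hdac7, had CpG ratios of 1.01 at Hdac2, 0.660 at Hdac5, and 0.795 and 1.09 at the internal starts of Hdac7. That of Hdac4, just upstream of its peak, had 0.982. The table's Hdac7 promoters without a peak had 0.283 and 0.185 and its Hdac9 promoters, which do not include the RefSeq starts in the long Hdac9 peak, had 0.205 and 0.0, beside a median of 0.384 over 32851 RefSeq promoters. Hdac11 did not follow this order, since its promoter had a CpG ratio of 0.660 and a GC content of 66.7%, as high as that of Hdac5 with a GC content of 60.7%, and no peak.

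Of 9 motifs searched on both strands in the same 300 bp, the GC box was the most frequent at the deacetylase genes. It was in 11 of the 17 peaks, including 7 of the 7 at own promoters. It was also in 49.8% of all peaks, 60.8% of those at coding promoters, 23.9% of the others and 35.7% of RefSeq promoters, and its letters are themselves GC-rich. The RefSeq promoter of Hdac4, which lay just upstream of its peak and not in it, held 5 GC boxes. The central part of the long Hdac9 peak held 2. The CCAAT box was in 2 of the windows (21.6% of all peaks), and in 1 of these, around the short Hdac9 peak shown above, it lay outside the peak. Leaving out bases beyond the ends of short peaks, it was in 1 of the 17, the long Hdac9 peak, and in 19.6% of all peaks, and the counts of the other motifs in the 17 were not altered. The homeodomain core TAATTA was in 1, the short Hdac9 peak shown above (3.60%), and the YY1 sequence AAGATGGCG was in 1, that at the Hdac1 start (1.56%). None of the 17 held the ETS sequence CCGGAAGT, the NRF1 sequence CGCATGCG, the CRE TGACGTCA, the AP-1 sequence TGANTCA or the GLI sequence GACCACCCA, which were in 3.23%, 1.14%, 0.801%, 3.52% and 0.326% of all peaks. A match is a description of the letters, and says nothing of whether a factor was bound.

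Genes with related roles gave a setting for these counts, beside 43.9% of all coding genes with an own-promoter peak and medians of 550 bp and 6369 for all peaks at coding promoters. An own-promoter peak was found at 18 of 18 listed genes for subunits of the SIN3, CoREST, NCoR/SMRT and NuRD complexes. Such peaks had a median rank of 2471.5 there and were 1275 bp long in the median. Of the class III deacetylases, the NAD-dependent sirtuins, 5 of 7 had one (600 bp, 7467.5), as did 8 of 9 acetyltransferase genes (600 bp, 8280). The median of the deacetylase genes, 650 bp and 4423, lay between the corepressor subunits and the other groups. The groups were compared by their counts and medians alone, and their lists were chosen with earlier results of these data known.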

How the data were processed

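HDAC1 ChIP-seq was performed on 4 samples with 3 inputs. The authors called peaks with CisGenome under a false discovery rate cut-off and deposited 1 list for all samples, whose values are peak coordinates (chromosome, start and end) in rank order, with no count, signal or score. The submitters' processing notes name Bowtie2 2.2.5 and mm10. The input reads were not used here.

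Starts were multiples of 50 bp, and coordinates were taken as 1-based and inclusive, so positions and lengths are no finer than 50 bp. Genes and starts were taken from GENCODE M21 (basic, protein-coding), and RefSeq GRCm38.p6 starts were added after the data were seen. Peaks were assigned by an overlap of at least 1 bp with a gene span and 5 kb around it, and promoters ran from 2 kb before to 1 kb after a coding start. GC content, CpG ratio and motifs were taken from 300 bp around the centre of each peak, which for shorter peaks includes bases outside them, and, as alternatives, from the whole peak and from the window without such bases. All 9 genes were named, and other genes only where a peak overlapped them, where they adjoined Hdac9, or where they completed a class. The genes, lists and rules were chosen with earlier results of these data known. Overlap calls were tested on simulated data. Python 3.11.15, pandas 2.3.3, numpy 2.4.6, pysam 0.24.0 and matplotlib 3.10.9 were used.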

Additional observations from a re-analysis of the deposited data

How the results depend on the processing

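Across 14 alternatives, 2 of them chosen after the data were seen (RefSeq starts of the 9 genes, and sequence windows without bases outside the peak), 91 of 110 values stayed within the limit set for a change and 19 did not. Without the 5-kb flank the 9 genes had 11 peaks in place of 17, class I genes had 2, and 45.1% of coding genes had a peak. With a flank of 10 kb this share was 53.8%. In the first 7674 peaks of the ranked list the genes had 9 peaks (4 at class I and 5 at classes II and IV), the shares of coding genes with a peak and with a promoter peak were 35.0% and 29.9%, and peaks away from an own promoter had a median length of 1125 bp in place of 250. The corresponding values in the first 3837 peaks were 2 peaks (1 and 1), 20.2%, 16.8% and 1300 bp, and 1 gene, Hdac4, had a promoter peak. The first 7674 lacked that of Hdac3. Own-promoter peaks had median lengths of 750 bp in the first 7674 and 650 bp in the first 3837, shorter than the other peaks there. A promoter window of 5 kb on each side gave 46.0% of coding genes with a promoter peak, and the starts of all transcripts gave 45.1%. With the starts of all transcripts or of RefSeq transcripts, Hdac9 joined the genes with a promoter peak, making 7 of 9. The GC content of own-promoter peaks exceeded that of the other peaks by 17.2 points, by 10.3 over whole peaks and by 16.1 without bases outside the peak. The list holds no depth, so a gene without a peak, such as Hdac11, is not shown to be unbound. No paired analysis was possible because the list holds no value for a sample, and for the same reason no sample could be left out.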
